A study of Mus musculus with 10 samples.

Results

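The guanylate-binding proteins (GBPs) are a family of large GTPases whose genes are switched on by interferons. The 10 GBP genes examined here, Gbp2, Gbp2b, Gbp3, Gbp4, Gbp5, Gbp6, Gbp7, Gbp8, Gbp9 and Gbp10, were chosen by name from the 22053 genes of a deposited RNA-seq table of mouse glomeruli, the capillary tufts through which the kidney filters blood. They were named with their difference between the genotypes known, so that difference is given as a description and no test of it is reported. The table held 5 libraries of the Col4a3 wild-type genotype and 5 of the Col4a3 p.G799R genotype, a missense change in a collagen IV chain of the glomerular basement membrane, here called G799R. The sources used here do not give strain, age, sex, zygosity or the method of isolating glomeruli. Nor is it stated that each library is its own mouse, and p-values therefore reflect variation among libraries, some of which could be technical. Tauroursodeoxycholic acid, the bile acid of the series title, labels no sample analysed here.

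GBPs belong to the dynamin superfamily, whose members use GTP to assemble on membranes and reshape them. Once induced by interferon, GBPs coat intracellular bacteria and the vacuoles that hold parasites, and they help activate inflammasomes and the caspase that senses bacterial lipopolysaccharide. They act beside a second family of interferon-induced GTPases, the immunity-related GTPases. Some members, Gbp2, Gbp2b and Gbp5 among them, end in a signal for the attachment of a lipid (prenylation), which anchors them to membranes.

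In the mouse the family lies in a pair of clusters, given here in GENCODE M21 on build GRCm38, which may differ from the build the authors used. The chromosome 3 cluster ran over 144 kb (chr3:142493978-142638008) and held, in order, Gbp5, Gbp7, Gbp3, Gbp2b and Gbp2, all on the plus strand. The chromosome 5 cluster ran over 279.5 kb (chr5:105014150-105293698) and held Gbp8, Gbp9, Gbp4, Gbp10 and Gbp6, all on the minus strand. RefSeq promoter windows of 300 bases, 250 before and 50 after the gene's start, were at hand for the 5 chromosome 3 genes. They were searched on both strands for GAAA, any 2 bases and GAAA again, 10 letters in all and the core of the interferon-stimulated response element (ISRE) bound by IRF factors, and for TTC, any 3 bases and GAA, the core of the gamma-activated site (GAS), another element of interferon-responsive promoters. The ISRE letters were found in 5 of 5 genes, and in 5 of their 6 windows, against 3.44% of 32851 windows of all genes. These 5 are related genes lying side by side, so they are not independent cases. In each case they read TTTC, 2 bases and TTTC on the plus strand, which is the reverse complement of the letters searched. The GAS letters were found in 2 of the 5, Gbp5 and Gbp7, with 2 matches in each, against 8.3% of all windows. The stretch of 60 bases around the ISRE letters is printed for each gene because the members moved together across libraries, as given below. It is from RefSeq, build GRCm38.p6, plus strand, 5′ to 3′, with the ISRE letters in capitals.
Gbp5, chr3:142496744-142496803: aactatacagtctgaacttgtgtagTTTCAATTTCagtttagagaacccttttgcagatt
Gbp7, chr3:142530258-142530317: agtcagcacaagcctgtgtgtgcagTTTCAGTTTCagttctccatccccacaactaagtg
Gbp3, chr3:142559974-142560033: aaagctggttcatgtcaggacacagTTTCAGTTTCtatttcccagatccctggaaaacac
Gbp2b, chr3:142594685-142594744: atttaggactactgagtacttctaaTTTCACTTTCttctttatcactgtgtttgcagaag
Gbp2, chr3:142620579-142620638: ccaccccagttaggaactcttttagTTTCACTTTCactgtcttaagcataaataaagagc
The first capital lay 165 bases before the RefSeq start of Gbp5, 53 before that of Gbp7 and 45 before that of Gbp3. It lay 137 before that of Gbp2b and 59 before that of Gbp2. The RefSeq starts of Gbp5 (142496934) and Gbp2 (142620663) lay after the starts of their GENCODE models (142493978 and 142620602). The capitals of both genes therefore fell inside those models. Gbp2b and Gbp2 shared the same 10 letters, and Gbp7 and Gbp3 shared another version of them. Gbp3 held a further match that overlapped the one printed and began 39 bases before the start, while a later start site of Gbp3 had no match in its window. A match of letters is not a measured binding site.

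The GBP genes were far higher in G799R glomeruli. Values are FPKM, in which a gene's fragments are divided by its transcript length and by the library's total, so levels can be compared between genes. Summed over the 10 genes, the family stood at 43.1 ± 13.8 FPKM in wild type (SD, n = 5) and at 389 ± 260 in G799R (SD, n = 5), a ratio of means of 9.05. Wild-type sums ran from 30.6 to 60.9 and G799R sums from 157 to 778, so the groups did not overlap. As a share of all FPKM of a library, the family took 95.5 to 188 ppm in wild type and 461 to 2306 ppm in G799R. In 9 of the 10 genes every G799R library lay above every wild-type library, as did 26.1% of the 13117 genes tested, those averaging 0.5 FPKM or more over all libraries. Because the same contrast chose the genes, nothing is read from that count. Gbp10 was the exception. The transcriptome as a whole differed between the genotypes: limma called 40.5% of the tested genes higher and 19.3% lower in G799R at an adjusted p under 0.05.

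**Figure D1:**
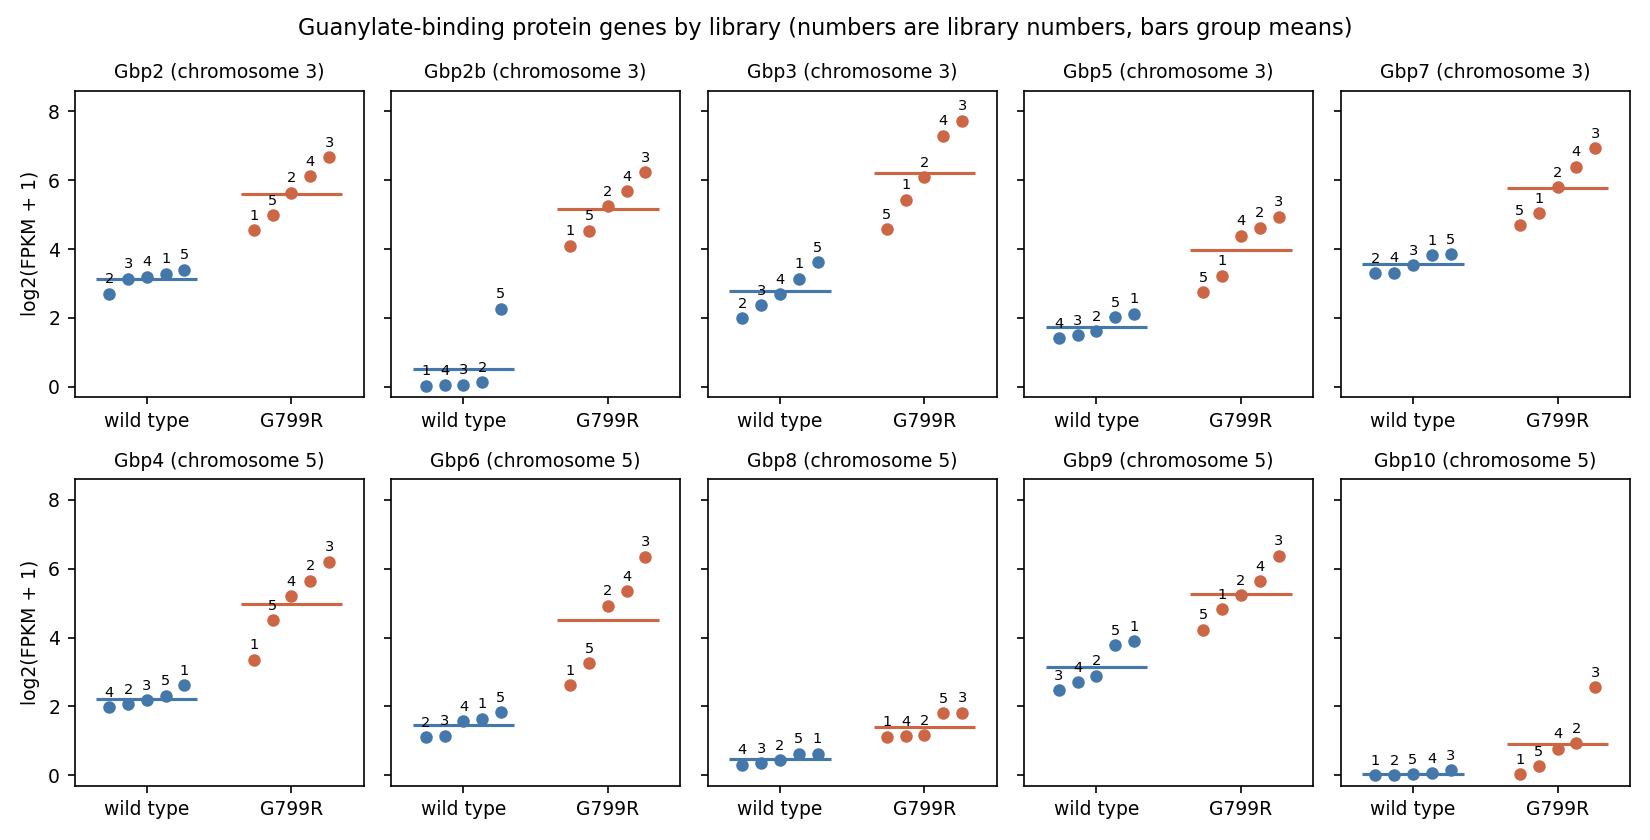
Level of each GBP gene as log2(FPKM + 1), 1 panel per gene, with 1 point per library sorted by value within its genotype, the library number above it, and a bar at the group mean. In 9 panels the lowest G799R point lies above the highest wild-type point, the exception being Gbp10, and library 3 is the highest G799R point in all 10.

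On chromosome 3, Gbp7 (ENSMUSG00000040253) was the most abundant member in wild type. It read 13.2, 8.89, 10.5, 8.94 and 13.4 FPKM in wild-type libraries 1 to 5, and 32.0, 54.3, 121, 82.6 and 24.9 in G799R libraries 1 to 5. Its lowest G799R library, library 5, was still above all wild-type libraries, and the ratio of means was 5.74. Gbp2 (ENSMUSG00000028270), a prenylated member known for its role against Toxoplasma, read 8.70, 5.49, 7.83, 8.14 and 9.55 FPKM in wild type and 22.3, 48.7, 100, 67.9 and 30.7 in G799R. Wild-type levels kept within a narrow band and the G799R libraries spread widely above it, with a ratio of means of 6.796.

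Gbp3 (ENSMUSG00000028268) reached the highest levels of the family. It read 7.83, 2.996, 4.19, 5.47 and 11.3 FPKM in wild type and 42.0, 66.5, 211, 155 and 22.8 in G799R. Libraries 3 and 4 stood well above the other G799R libraries, and the mean went from 6.36 ± 3.31 to 99.4 ± 80.3 (SD, n = 5 each), a ratio of 15.6. Gbp5 (ENSMUSG00000105504), known for promoting the assembly of the NLRP3 inflammasome, read 3.35, 2.07, 1.84, 1.64 and 3.06 FPKM in wild type and 8.37, 23.5, 29.5, 19.8 and 5.75 in G799R. The groups did not overlap, G799R libraries 1 and 5 were the low ones, and the ratio of means was 7.27.

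Gbp2b (ENSMUSG00000040264), the mouse gene formerly called Gbp1, had a pattern of its own in wild type. It read 0.022, 0.095, 0.044 and 0.039 FPKM in wild-type libraries 1 to 4, next to no signal, and 3.82 in wild-type library 5. In G799R it read 16.1, 36.8, 74.3, 50.3 and 22.2 FPKM, so the lowest G799R library was 4.21 times the highest wild-type one. The mean went from 0.804 ± 1.69 to 39.9 ± 23.4 FPKM (SD, n = 5 each). On the log2(FPKM + 1) scale the difference was 4.65 ± 0.49 (SE), larger than that of any other member, and wild-type library 5 set most of the wild-type mean. Of the 2724 windows of 100 bases in the Gbp2b transcripts, 0 were shared with another gene, and the same held for the 2514 windows of Gbp2. Gbp2b is known to differ between inbred mouse strains in how strongly interferon induces it. Whether strain background moved with these libraries was not tested.

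On chromosome 5, Gbp9 (ENSMUSG00000029298) was the most abundant member in wild type. It read 13.9, 6.41, 4.52, 5.47 and 12.7 FPKM in wild type and 27.3, 36.3, 81.7, 48.9 and 17.8 in G799R. The gap between groups was narrow, since the lowest G799R library was 1.28 times the highest wild-type library, and the ratio of means was 4.92. Gbp4 (ENSMUSG00000079363) read 5.14, 3.19, 3.54, 2.92 and 3.95 FPKM in wild type and 9.21, 49.3, 72.6, 35.9 and 21.7 in G799R. Library 1 was the low G799R library here, clear of wild type, and the ratio of means was 10.1.

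Gbp6 (ENSMUSG00000104713) read 2.12, 1.147, 1.22, 1.97 and 2.55 FPKM in wild type and 5.13, 29.3, 80.0, 39.8 and 8.55 in G799R. The groups did not overlap, and the ratio of means was 18.1. Gbp10 (ENSMUSG00000105096) read 0, 0, 0.108, 0.039 and 0.018 FPKM in wild type and 0.020, 0.913, 4.91, 0.712 and 0.198 in G799R. It passed the filter of 0.5 FPKM only through G799R library 3, and its groups overlapped. The transcripts of these genes are hard to tell apart: 64.5% of the 100-base windows of Gbp6 and 73.5% of those of Gbp10 also occur in another gene model, chiefly Gm43302 and each other, so how their fragments were divided is uncertain. Gm43302, a gene model across both, was listed at 0 in 8 libraries, at 0.224 FPKM in G799R library 2 and at 2.43 in G799R library 3.

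Gbp8 (ENSMUSG00000034438) stayed low. Its wild-type mean of 0.392 FPKM was under the filter of 0.5 FPKM, which it passed only through its G799R libraries. It read 0.547, 0.349, 0.283, 0.239 and 0.542 FPKM in wild type and 1.17, 1.23, 2.51, 1.2 and 2.49 in G799R, with a ratio of means of 4.39. The groups did not overlap, but its G799R libraries followed another order than the rest of the family, with library 5 next to library 3 at the top. The models of Gbp8, Gbp9 and Gbp4 overlap on the genome, and at most 4.39% of the windows of any of the 3 occur elsewhere. Gbp11 was not analysed here.

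The make-up of the family differed between the genotypes. In wild type the order of mean levels was Gbp7, Gbp9, Gbp2, Gbp3, Gbp4, Gbp5, Gbp6, Gbp2b, Gbp8 and Gbp10. In G799R it was Gbp3, Gbp7, Gbp2, Gbp9, Gbp2b, Gbp4, Gbp6, Gbp5, Gbp8 and Gbp10. Within G799R, the first 8 in that order overlapped their neighbours across libraries, and only the step from Gbp5 down to Gbp8 was clear of overlap. Gbp7 held 26.3% ± 3.62 of the summed family FPKM among wild-type and 16.6% ± 1.68 among G799R libraries (SD, n = 5 each), and these ranges did not overlap. Gbp2b held 1.37% ± 2.74 and 10.8% ± 1.90, also without overlap, although library 5 gave 6.27% in wild type. Gbp3 went from 14.1% ± 3.35 to 23.5% ± 6.55 and Gbp9 from 19.2% ± 4.78 to 11.7% ± 2.83, with overlapping ranges in both.

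**Figure D2:**
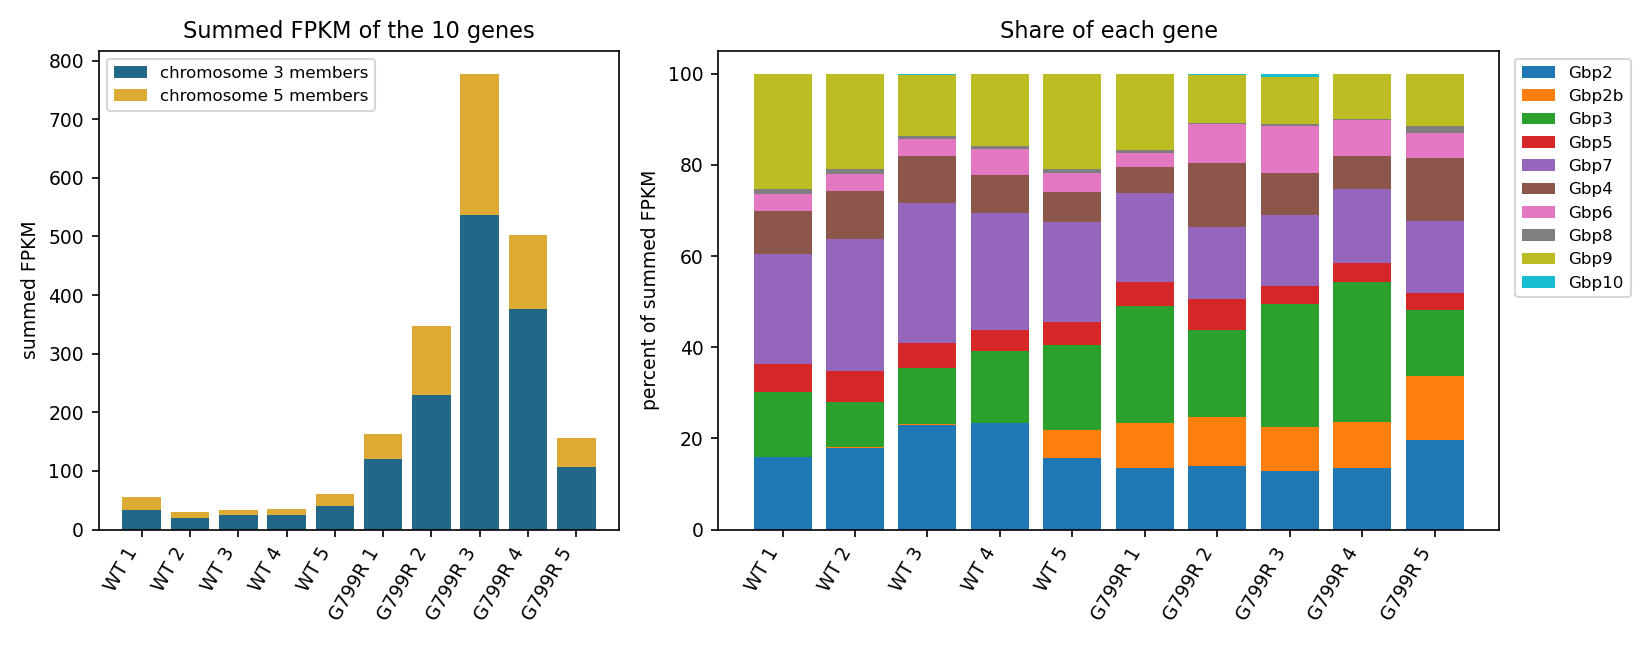
Summed FPKM of the 10 GBP genes in each library, stacked by chromosome on a linear axis from 0 (left), and the percentage of that sum held by each gene (right), with WT for wild type. Wild-type sums lie between 30.6 and 60.9 FPKM and G799R sums between 157 and 778, with library 3 the tallest, and Gbp2b holds a visible share in wild type only in library 5, at 6.27%.

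The gap between the 2 clusters depended on which of their genes entered. The summed chromosome 3 genes went from 28.5 ± 8.599 to 274 ± 182 FPKM, a ratio of 9.61, and the summed chromosome 5 genes from 14.6 ± 5.70 to 116 ± 79.9 FPKM, a ratio of 7.94 (SD, n = 5 each). Chromosome 3 genes held 60.4% to 71.6% of the family sum in wild type and 66.3% to 74.8% in G799R, so the ranges overlapped. The mean log2(FPKM + 1) difference was 2.999 for the chromosome 3 genes and 1.94 for the chromosome 5 genes, 1.06 apart. That gap rested on 3 genes: without Gbp2b, Gbp8 and Gbp10 the means were 2.59 and 2.64, a gap of -0.0476. This subset was chosen after the values were seen.

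Most genes next to the clusters had smaller differences than the GBP genes, but Bmpr1b, at 1.14, lay above Gbp8, at 0.94, and Gbp10, at 0.87. Each of the 3 nearest measured protein-coding genes on either side of each cluster was examined, 12 in all. Log2 differences ran from -0.78 for Kyat3, 63.0 kb from the chromosome 3 cluster, to 1.14 for Bmpr1b, a receptor for bone morphogenetic proteins on its other side. The nearest gene of all, Abcg3, 31.4 kb from the chromosome 5 cluster, read 0.364 FPKM in wild type and 1.07 in G799R, a log2 difference of 0.56. Pkd2, Zfp951 and Lrrc8b did not pass the limma test on the deposited scale. Kyat3 and Lrrc8d were called lower, and Bmpr1b higher, on the deposited scale and also with median-of-ratios scaling or scaling to glomerular marker genes. Lrrc8c and Unc5c were called higher on the deposited scale at 0.70 and 0.59, but stood at 0.05 and -0.03 and lost the call under the last of these, and Pdlim5, Gtf2b and Pkn2 turned from higher to lower under it. Pkd2, Zfp951 and Lrrc8b were called lower under it too, at -0.64, -0.39 and -0.66, and Abcg3, at 0.32, lost its call.

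**Figure D3:**
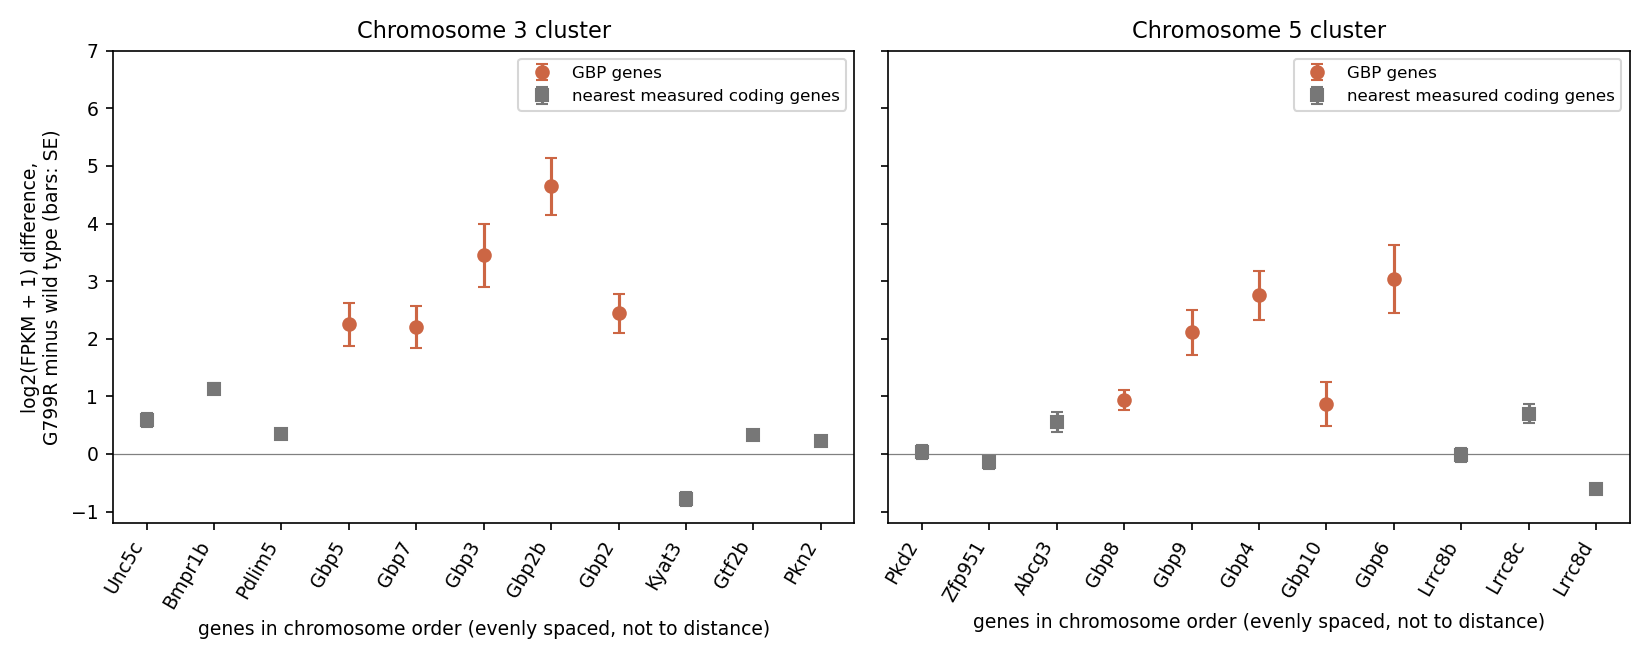
Difference in log2(FPKM + 1), G799R minus wild type, for the GBP genes and their 3 nearest measured neighbours on each side, in chromosome order (left, chromosome 3; right, chromosome 5), with bars of 1 standard error over 5 libraries per group. Every GBP gene except Gbp8, at 0.94, and Gbp10, at 0.87, lies above the 12 neighbours, whose highest is Bmpr1b at 1.14.

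The G799R libraries differed widely from each other, and the members mostly kept one order. G799R library 3 was the highest for all 10 genes, and libraries 3 and 4 were the top pair for 6. Library 2 lay above library 1 for all 10. At the low end the members split: library 1 was the lowest for Gbp2, Gbp2b, Gbp4, Gbp6, Gbp8 and Gbp10, and library 5 for Gbp3, Gbp5, Gbp7 and Gbp9. The split did not follow the clusters, since each side held genes of both. Relative to library 1, library 5 held 2.35 times as much Gbp4 and 1.67 times as much Gbp6, but 0.542 times as much Gbp3 and 0.651 times as much Gbp9. Without libraries 3 and 4, the log2 differences were smaller but no smaller than 0.89 except for Gbp10, at 0.36. They were 1.91 for Gbp2, 4.11 for Gbp2b and 2.59 for Gbp3.

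Interferon target genes outside the family showed the same kind of split between libraries. Type I interferon targets, the antiviral genes such as Ifit1 and Isg15, were lower in G799R library 5 than in library 1 for 19 of 19 genes, with a median ratio of 0.295, and library 3 stood at a median of 4.82 times library 1. The immunity-related GTPases were higher in library 5 than in library 1 for 6 of 9 genes, with a median ratio of 1.52. The 6 included Gvin1, whose G799R values, given below, were very low. Interferon-gamma targets, mostly genes of antigen presentation, had a median ratio of 0.996 and were higher in library 5 for 9 of 19. Gbp3, Gbp5, Gbp7 and Gbp9 were thus lower in library 5 than in library 1, as the type I targets were, and the other 6 members were higher, but no member was as low as the type I median. Lower values in library 5 were not particular to type I targets. The median ratio was 0.478 for proximal tubule markers, with 0 of 14 higher in library 5. It was 0.754 for macrophage and myeloid markers, with 3 of 16 higher, but 3.89 for the 7 tested T and NK cell markers. Library 5 also stood apart in some blood cell markers, but not in all. Its erythroid, B cell and macrophage and myeloid sums were 725.7, 12.61 and 248.8 FPKM. The highest G799R sums of these were 744.5 in library 3, 16.35 in library 1 and 294.1 in library 2. The summed level of 10 dendritic cell and neutrophil markers was 184 FPKM in library 5 and 26.1 to 51.5 in the other G799R libraries, led by S100a9 at 107 FPKM. That of 14 T and NK cell markers was 20.6 in library 5 against 6.40 to 10.4. The part of these cells in the ratios of library 5 was not tested. These ratios compare single libraries and have no replicate error.

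**Figure D4:**
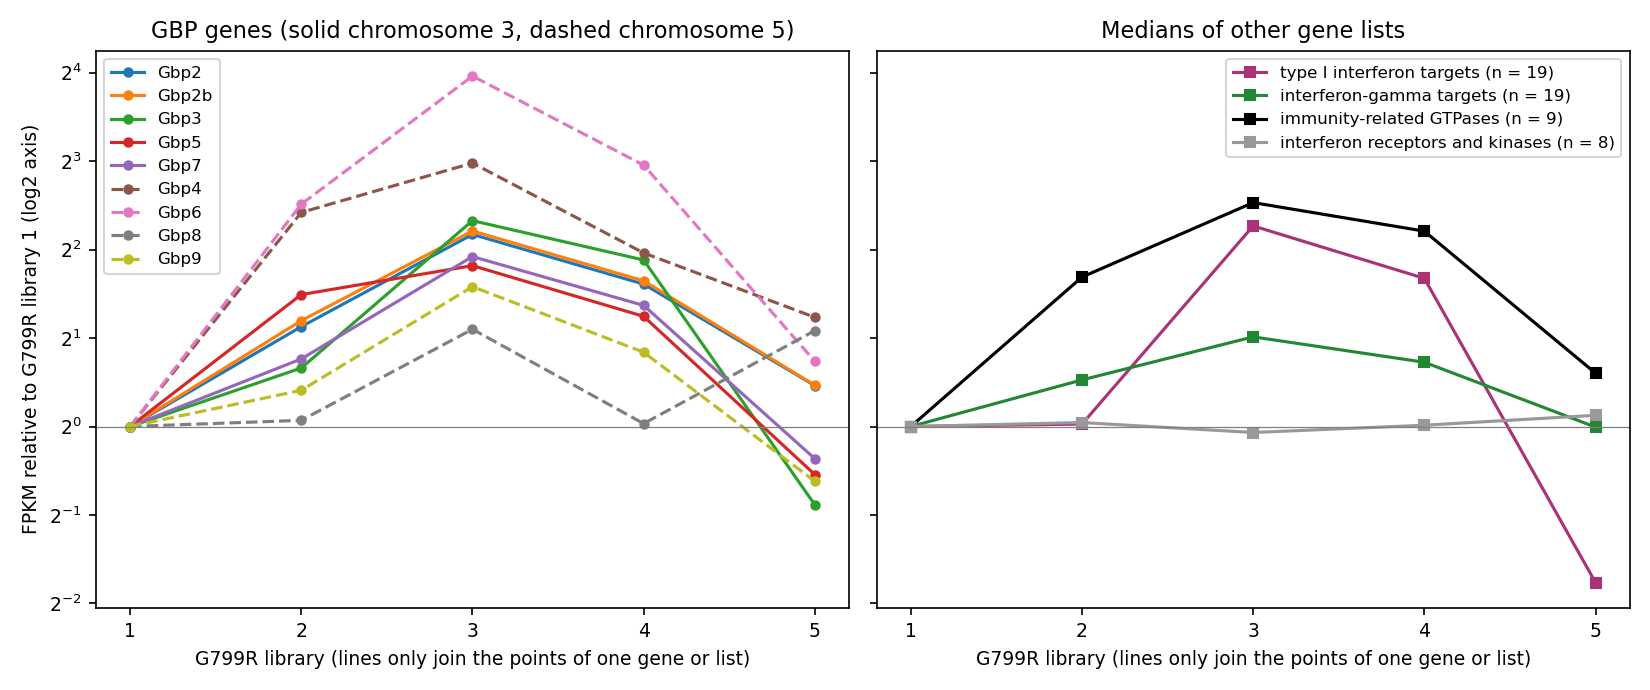
FPKM in each G799R library relative to G799R library 1, on a log2 axis, for the GBP genes except Gbp10 (left, 1 line per gene, chromosome 5 genes dashed) and for the median of 4 other gene lists (right). Library 3 is the peak for all 9 genes shown, and at library 5 they spread from 0.542 times library 1 for Gbp3 to 2.35 times for Gbp4, while the type I targets stand at 0.295 times.

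The genes whose library-to-library pattern was most like that of the family were mainly interferon-induced. Likeness was Pearson's r of log2(FPKM + 1), with each group's mean removed, against the mean of the members, over 10 libraries and 11942 genes, and is a description. Among the 8 highest were Tap1 (0.97), Igtp (0.97), Irgm2 (0.96), Trim25 (0.96), Irgm1 (0.95), Ifi47 (0.95) and Coq2 (0.95). Tap1 encodes a peptide transporter of antigen presentation, and Igtp, Irgm2, Irgm1 and Ifi47 are immunity-related GTPases. The models of Igtp and Irgm2 overlap, so they may share fragments. When the G799R libraries were used alone, 1 of the 8 was again among the 8 most alike, so this ranking is loose. Among the members, Gbp6, Gbp7 and Gbp2 followed the mean of the other members most closely, with r of 0.96, 0.958 and 0.955, and Gbp8 least, at 0.26.

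Transcription factors of the interferon response rose, while the interferon genes were at or near 0. Of 11 interferon genes in the table, 9 were listed at 0 in all 10 libraries; Ifng was listed at 0.155 FPKM in G799R library 5 only and Ifnb1 at 0.09 in G799R library 4 only. All 8 tested receptors and kinases were called higher by limma, against 40.5% of all tested genes. Their median log2 difference was 0.46, against 0.17 over all tested genes. With scaling to glomerular marker genes, limma called 497 of 13158 genes higher and 7845 lower. On that scale 1 of the 8 receptors and kinases was higher and 3 were lower, so their direction depends on the scale. The one that held was Ifngr1, the ligand-binding chain of the interferon-gamma receptor. It went from 23.7 ± 3.07 to 71.4 ± 22.4 FPKM (SD, n = 5 each; limma adjusted p = 0.000154), while Ifngr2, its partner chain, had a log2 difference of 0.49 that became -0.14 under glomerular scaling.

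Of 10 transcriptional regulators of interferon responses, 9 were called higher and 0 lower, with a median log2 difference of 1.72. Not all of these are known to act on GBP genes. Over all tested genes, 40.5% were called higher and 19.3% lower. Under glomerular scaling 7 of the 10 were called higher, against 497 of 13158 genes. Irf1, which binds the ISRE, went from 21.5 ± 2.34 to 70.7 ± 20.5 FPKM (SD, n = 5 each; limma adjusted p = 2.1e-05). Irf7, a master factor of the type I response, read 3.83 to 10.2 FPKM in wild type and 20.1 to 768 in G799R, with library 5 the lowest (limma adjusted p = 0.000813). Nlrc5, which drives class I antigen presentation genes, was higher 11.2-fold, whereas the log2 difference of 0.55 of Irf8, a factor of myeloid cells, became -0.01 and lost its call under glomerular scaling.

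Other interferon targets rose too. The counts that follow stand beside 40.5% of all tested genes called higher and 19.3% called lower. Under glomerular scaling they stand beside 497 of 13158 genes called higher and 7845 called lower. Of 19 type I targets, 19 were called higher, at a median log2 difference of 2.82, and again 19 under glomerular scaling. Of 19 interferon-gamma targets, 18 were called higher, at a median of 1.36, and 11 under glomerular scaling. Among these interferon-gamma targets Tap1 was higher 8.24-fold, the immunoproteasome subunit gene Psmb8 6.14-fold, and B2m, the light chain of class I molecules, 5.77-fold. Among the type I targets Ifi27l2a was higher 40.7-fold. Of 9 immunity-related GTPases, 8 were called higher and 1 lower, their median being 2.88, and the counts were the same under glomerular scaling. Irgm1, a regulator of the family, was higher 6.11-fold, Igtp 8.82-fold and Tgtp1 46.3-fold. The exception was Gvin1, a very large interferon-inducible GTPase gene. It read 7.22, 5.78, 8.48, 8.84 and 15.8 FPKM in wild type and 0.058, 0, 0.373, 0.560 and 0.332 in G799R, with no overlap in the opposite direction to the GBP genes.

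Genes through which GBPs act, and other genes of their superfamily, had smaller median differences than the GBP genes, and most of their calls depended on the scale. Their counts stand beside 40.5% of all tested genes called higher and 19.3% called lower. Under glomerular scaling they stand beside 497 of 13158 genes called higher and 7845 called lower. Of 13 inflammasome and pyroptosis genes, 8 were called higher and 2 lower, with a median log2 difference of 0.60, and 2 and 3 were under glomerular scaling. Gsdmd, the pore-forming protein of pyroptosis, read 7.50 to 10.998 FPKM in wild type and 17.0 to 26.5 in G799R (limma adjusted p = 4.3e-05), and stayed higher under that scaling at a log2 difference of 0.57. Zbp1, the other gene of this list still called higher there, stood at 2.34, above the GBP median of 1.75 on that scale. Aim2, a sensor of cytosolic DNA, and Casp4, the mouse caspase-11 gene, had log2 differences of 0.60 and 0.67, which became 0.15 and 0.07 without a call, and the call of Casp4 was also lost without wild-type library 1, 4 or 5 or without G799R library 2 or 5. Of 14 genes of autophagy and ubiquitin that help load GBPs onto membranes, 6 were called higher and 1, Gabarapl1, lower; under glomerular scaling 1 was higher and 11 lower. Of 8 prenylation genes, 4 were called higher and 0 lower, which became 0 higher and 6 lower. Of 14 other dynamin-superfamily genes, 7 were called higher and 4 lower, which became 0 and 8. The shares called higher in these last 3 lists were near that of all tested genes. Atl1, Atl2 and Atl3, the atlastins, which are the closest relatives of the GBPs, read 1.38, 14.8 and 24.1 FPKM in wild type and 1.93, 13.4 and 29.0 in G799R. Median log2 differences of the autophagy and ubiquitin, prenylation and dynamin-superfamily lists were 0.13, 0.20 and 0.19, near the 0.17 of all tested genes. Under glomerular scaling these medians were -0.52, -0.45 and -0.44, near the -0.42 of all tested genes.

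Cell type markers moved with the genotype too. All counts of markers called on the deposited scale stand beside 40.5% of all tested genes called higher and 19.3% called lower. Podocyte markers were abundant, but in wild type so were tubule markers. The podocyte gene Podxl averaged 1301 ± 92.6 FPKM among wild-type and 2221 ± 239 among G799R libraries (SD, n = 5 each). The sums of the 10 podocyte markers ran from 3156 to 3823 FPKM in wild type and from 5423 to 7221 in G799R. Limma called 10 of 10 podocyte and 10 of 12 endothelial genes higher. All 14 proximal tubule markers were called lower, their summed level running from 3052 to 5490 FPKM in wild type and from 332 to 699 in G799R, as were 11 of 12 distal markers. With a tubule score as a covariate, limma called 0 genes in either direction, with 744 at an unadjusted p under 0.05, so genotype and tubule content cannot be told apart. In that fit the median log2 difference of the 10 GBP genes went from 2.35 to 1.81. The difference of Gbp4 went from 2.75 to 1.51 and that of Gbp8 from 0.94 to 0.49. Those of Gbp2b, Gbp5 and Gbp10 rose, to 4.91, 2.33 and 1.47, and the rest fell. Of 16 macrophage and myeloid markers, 10 were called higher, against 40.5% of all tested genes. Under glomerular scaling 6 were, against 497 of 13158 genes. Their median log2 difference of 0.91 became 0.36, while that of all tested genes went from 0.17 to -0.42. The sums of the 16 markers ran from 63.6 to 155 FPKM in wild type and from 168 to 294 in G799R. In G799R those sums were 259, 294, 213, 168 and 249 in libraries 1 to 5, while their mean log2(FPKM + 1) was 3.57, 3.70, 3.19, 2.72 and 3.12, so that library 4 was the lowest by both and library 3 the fourth or the third. Of 7 tested T and NK cell markers 1 was called higher, and the sums of the 14 on the list ran from 4.74 to 7.77 FPKM in wild type and from 6.40 to 20.6 in G799R, where library 5 alone was above 10.4. Of 6 tested dendritic cell and neutrophil markers 1 was called higher, and the sums of the 10 on the list ran from 18.9 to 45.7 FPKM in wild type and from 26.1 to 184 in G799R, again with library 5 at the top. None of the marker genes was at 0 in all libraries, and the part of these cells in the GBP values was not tested. In such bulk samples, fewer cells of a type and less RNA per cell cannot be told apart.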

How the data were processed

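The authors deposited 1 table of FPKM values for the 10 libraries. The submitters' processing notes name RSEM, HISAT2, StringTie 1.3.1, Bowtie2 2.2.8 and fastp 0.18.0, without their order. The genome build is not given in the sources used here. Per the labels' protocols, enriched mRNA was made into libraries with a NEBNext Ultra kit. Absolute depth cannot be read from FPKM, which leaves counting error unknown. Relative depth, from the steps between low values, was 0.86 to 1.19 times that of wild-type library 1. FPKM sums ran from 320720 to 340875, and replicates of a group correlated at 0.963 to 0.987. Values were used as deposited, as log2(FPKM + 1), which understates fold changes of low genes. The 13117 genes averaging 0.5 FPKM or more were tested with limma 3.58.1 (trend, two-sided) in R 4.3.3, adjusting p by Benjamini-Hochberg (threshold 0.05). The script was tested on simulated data. Symbols matched 21963 of 22053 identifiers, and 90 had no entry in GENCODE M21. Glomerular scaling set each library by its podocyte, endothelial and mesangial markers. Members and gene lists were chosen with earlier results of these data known. Named genes were all members, key inducers and effectors, up to 4 genes of each list with the smallest p and list members called lower where at most 4 were, the 8 most alike genes and the nearest neighbours. Some genes that this rule names are not reported here. Alternatives were other pseudocounts, filters, scalings, covariates and left-out libraries. Protein features were not examined, and Col4a3 itself averaged 138 ± 13.6 FPKM in wild-type and 213 ± 12.4 FPKM in G799R libraries (SD, n = 5 each), which does not check a missense label.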

Additional observations from a re-analysis of the deposited data

Results flagged for a closer look

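Within groups of 5 libraries, 1 library stood far from the other 4 in 10 of the 159 gene and group pairs examined, and chance alone gives about 1 in 20. Of the GBP genes, Gbp2b stood at 3.819 FPKM in wild-type library 5 against 0.022 to 0.095 in the others, and Gbp10 at 4.905 in G799R library 3 against 0.02 to 0.913. Wild-type library 5 was also the high one for Usp18, an inhibitor of interferon signalling, at 6.348 FPKM against 2.806 to 3.311. The same library was high for Rtp4, at 15.082 against 5.849 to 8.142, for Tgtp1, at 2.344 against 1.065 to 1.366, and for Trim25, at 16.549 against 11.895 to 12.713. Ifng was at 0.155 in G799R library 5 and 0 in the others. Atg16l1 was at 14.011 in G799R library 5 against 11.409 to 12.1, Unc5c at 14.755 in G799R library 3 against 10.089 to 11.414, and Pkd2 at 30.376 in wild-type library 3 against 43.036 to 48.034.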

How the results depend on the processing

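Each of 208 single-member differences under 21 alternatives was positive, the smallest 0.36, and 5 moved beyond the spread between libraries: with a pseudocount of 0.1, Gbp2b went to 6.93, Gbp8 to 1.85 and Gbp10 to 2.42, and with the tubule score as a covariate Gbp4 went to 1.51 and Gbp8 to 0.49. With glomerular scaling the median log2 difference of the 10 GBP genes went from 2.35 to 1.75. The number of them without overlap between groups went from 9 to 8, and the share over all genes was not computed on that scale. The gap between the chromosome 3 and chromosome 5 genes was 0.36 with a filter of 2 FPKM, which drops Gbp8 and Gbp10, and -0.0476 without Gbp2b, Gbp8 and Gbp10, a choice made after seeing the data. Scaling moved the background: genes called higher and lower, 5308 and 2537 as deposited, became 3058 and 3351 with median-of-ratios scaling, 497 and 7845 with glomerular scaling, which moved the median log2 difference of all genes from 0.17 to -0.42, and 0 and 0 with the tubule score as a covariate, where 744 had an unadjusted p under 0.05. Pathway genes called higher became 51 and called lower 35 with glomerular scaling, 13 were lower with median-of-ratios scaling, and 0 in either direction with the tubule covariate. The cause was not tested. Of 53 named pathway calls, glomerular scaling lost 22, of which 5 turned to lower (Pias1, Atg16l1, Fnta, Ggps1 and Atl3), median-of-ratios scaling lost 6, the tubule covariate lost 53, and leaving out 1 library lost those of Atl1, Casp4, Ninj1 and Socs1. Over the fits that left out 1 library, genes called higher numbered 4616 to 5587, genes called lower 2374 to 2582, and the gap between clusters was 0.95 to 1.17. Of the 8 most alike genes, 1 stayed with the G799R libraries alone. Replicate numbers are shared between the groups, but same-numbered libraries did not deviate together (correlations -0.085 to 0.048), so they do not pair the samples; with a replicate block, 4937 genes were called higher and 2451 lower, and no named call changed.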

Other observations

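A search for the wild-type pattern of Gbp2b, made after that pattern was seen, asked for at most 0.1 FPKM in wild-type libraries 1 to 4 and at least 1 FPKM in the other 6 libraries. It found 3 genes. Beside Gbp2b these were Ifi44l, an interferon-induced gene that also lies on chromosome 3 (chr3:151758737-151762892, GRCm38), and Gm12666, a gene model on chromosome 4 (chr4:92190744-92191749). Ifi44l read 0, 0.078, 0.045, 0.04 and 3.02 FPKM in wild type and 14.7, 15.7, 119, 70.6 and 4.04 in G799R. Its G799R libraries 3 and 4 were high, as for most GBP genes, and library 5 was the lowest. Gm12666 read 0 in wild-type libraries 1 to 4 and 1.65 in wild-type library 5, and 2.48, 4.58, 3.72, 3.04 and 3.55 in G799R, with no such spread among the G799R libraries.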
